A study of Mus musculus with 93 samples.

Results

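The Spalt-like factors of the mouse, Sall1, Sall2, Sall3 and Sall4, were chosen as a gene family by their names, and all 4 are among the 24514 gene symbols counted in 93 RNA-seq libraries. Each library was made from 10 sorted cells in 1 well of a plate. All cells carry Hcn4GFP, Tbx1Cre and Ai9, either as mouse embryos or as embryonic stem cells (ESCs) derived from such mice and grown into spheroids. GFP+ cells express the Hcn4 reporter, a marker of the first heart field (FHF). RFP+ cells carry the permanent Ai9 label left by Tbx1-Cre, which traces the second heart field (SHF) and also other Tbx1 descendants, so an RFP+ cell need not express Tbx1 any longer. Embryos gave 9 libraries, 5 of GFP+ and 4 of RFP+ cells. Spheroids, taken at day 5.5, gave 38 of GFP+ and 46 of RFP+ cells. The titles of the embryo libraries give embryonic day 8.5, whereas the protocol gives E7.75. No label ties a well to an embryo or a differentiation, so n counts wells, and p-values measure the spread between wells, which may be technical.

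Sall proteins are nuclear factors with C2H2 zinc fingers, named after the spalt gene of the fruit fly. Their amino-terminal end can recruit the nucleosome remodelling and deacetylase complex (NuRD), through which they repress target genes. Sall4 is part of the pluripotency network of ESCs and is widely active in the early embryo. Sall1 is required for kidney development and is active in progenitors of several organs, including the heart. Sall2 and Sall3 are best known from the nervous system.

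The start of the coding sequence is shown for Sall4, the most abundant member, and for Sall2, because it holds the NuRD-recruiting end and separates the 2 annotated forms of Sall2. The transcripts are those of GENCODE M21, and each stretch is 36 bases (12 codons) on the minus strand of mm10, written 5′ to 3′. Capitals mark bases that differ from Sall4.
Sall4-201 (chr2:168766994-168767029): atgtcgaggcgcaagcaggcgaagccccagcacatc
Sall2-201 (chr14:52328140-52328175): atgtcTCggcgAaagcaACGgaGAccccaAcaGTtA
Sall2-202 (chr14:52316074-52316109): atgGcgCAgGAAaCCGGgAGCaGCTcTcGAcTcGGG
Sall2-201 shared 24 of the 36 bases with Sall4 and had a codon for the same residue at 8 of 12 positions. The Sall2-202 form, which begins in another first exon, shared 13 bases and 1 codon. The counts are per gene, so the forms of Sall2 cannot be told apart here.

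Sall1 lies at chr8:89027235-89044162, Sall2 at chr14:52311172-52328762 and Sall4 at chr2:168748332-168767943, all on the minus strand. Exons of Sall4 overlap those of Gm14261, a gene on the opposite strand with no row in the table. The use of strand and the treatment of reads that match several places are not given in the sources used here. Reads from the stretch where Sall4 and Gm14261 overlap therefore cannot be told apart. This overlap is at most 850 bases, summed over transcripts, where Sall4 has 5536 exonic bases. Reads from stretches that the paralogs share may be split between them.

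Total counts on genes ran from 712732 to 2525460 in embryo libraries. In spheroids they ran from 445071 to 5658882, except in the GFP+ well C9 with 6288 counts, of which 2 fell on Sall genes. Fewer genes were detected in embryo GFP+ libraries (6189 to 8302) than in embryo RFP+ libraries (10263 to 13052), and the part of this gap in the differences below was not tested. Hcn4 was at 14.9 ± 16.7 counts per 1000000 counted reads (CPM; SD, n = 5) in embryo GFP+ cells and 0.36 ± 0.72 (n = 4) in embryo RFP+ cells, and at 7.32 ± 4.42 (n = 38) and 0.447 ± 0.672 (n = 46) in spheroids. Tbx1 had no count in embryo GFP+ libraries and was at 3.96 ± 3.56 CPM in embryo RFP+ cells, against 0.0301 ± 0.131 and 2.52 ± 1.84 CPM in GFP+ and RFP+ spheroid cells. In these 10-cell pools, fewer cells of a type and less RNA per cell cannot be told apart.

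Sall4 was the most abundant member in every group. To compare genes, CPM scaled by the TMM method were divided by the kilobases of annotated exons. On this scale Sall4 was at 21.4 ± 13.5 CPM per kb in embryo GFP+ cells (SD, n = 5), 27.0 ± 7.81 in embryo RFP+ cells (n = 4), 37.2 ± 8.34 in spheroid GFP+ cells (n = 38) and 64.2 ± 9.52 in spheroid RFP+ cells (n = 46). Sall1 followed with 2.06 ± 2.92, 17.8 ± 1.77, 10.6 ± 3.61 and 20.4 ± 4.13 CPM per kb in the same order of groups. Sall4 had the highest level of the family in 5 of 5, 4 of 4, 38 of 38 and 46 of 46 libraries. Sall1 was second in 3, 4, 35 and 46 of them.

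The make-up of the family differed between embryo and spheroid RFP+ cells in the balance of Sall4 and Sall1. In embryo RFP+ libraries Sall4 made up 41.8% to 55.0% of the summed CPM per kb of the family, and Sall1 25.5% to 41.7%. The ratio of Sall4 to Sall1 per kb ran from 1.00 to 2.16 there (median 1.51), and from 1.30 to 6.44 in spheroid RFP+ wells (median 3.29). In spheroid GFP+ wells the median ratio was 3.48 over the 37 wells with a Sall1 count. In embryo GFP+ libraries Sall4 made up 63.8% to 96.4% of the family. This range lay above that of embryo RFP+ libraries. It overlapped those of spheroid GFP+ wells (52.1% to 81.5%) and spheroid RFP+ wells (49.0% to 80.5%). The member that took most of the rest differed between the embryo GFP+ libraries: Sall1 with 17.1% in B12, 7.34% in E12 and 2.41% in A12, Sall2 with 15.4% in D12 and Sall3 with 36.2% in C12.

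**Figure D1:**
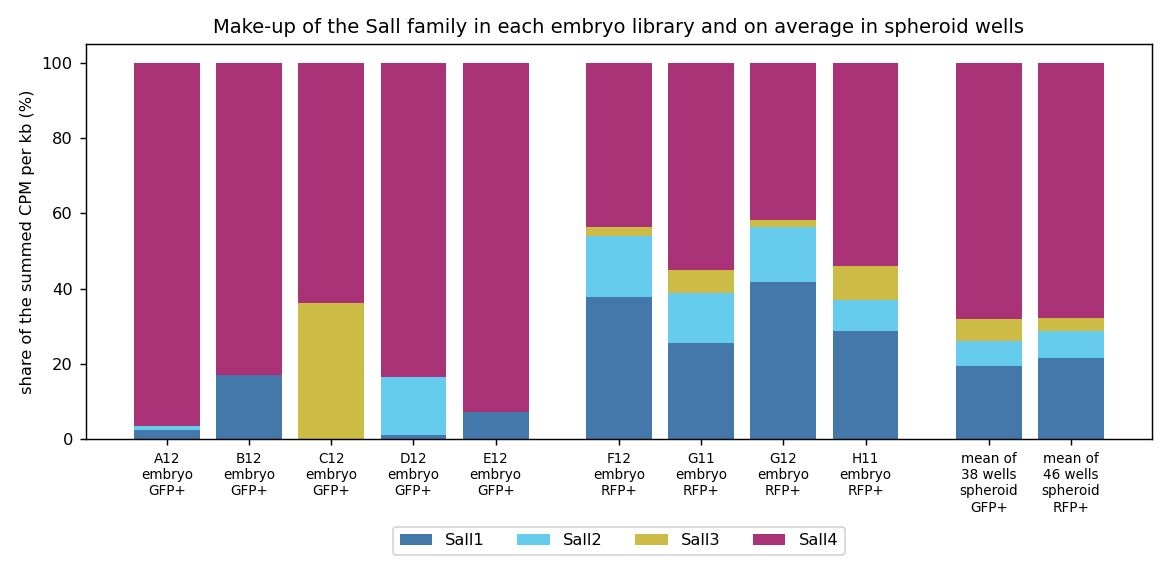
Share of each Sall gene in the summed CPM per kb of the family (%, vertical axis), for each embryo library (named by its well) and as the mean of the shares over the 38 GFP+ and 46 RFP+ spheroid wells. Sall4 (purple) takes 63.8% to 96.4% in embryo GFP+ libraries and 41.8% to 55.0% in embryo RFP+ libraries.

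In embryos, Sall1 and Sall2 were seen in every RFP+ library and were low or absent in GFP+ libraries. Sall1 was at 92.1, 84.5, 107 and 92.2 CPM in the RFP+ libraries F12, G11, G12 and H11. In the GFP+ libraries A12, B12, C12, D12 and E12 it was at 2.18, 35.7, 0, 0.465 and 15.9 CPM, from 2, 82, 0, 1 and 15 counts. The lowest RFP+ library was thus above the highest GFP+ library, and 3 of the 5 GFP+ libraries held 3 counts or fewer. The share of all genes whose embryo libraries lay apart in this way was not counted, and GFP+ libraries had fewer genes detected. Means were 93.9 ± 9.31 CPM (SD, n = 4) in RFP+ and 10.9 ± 15.4 (n = 5) in GFP+ cells, a ratio of 8.65.

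Sall2 had the same order with lower levels. It was at 40.5, 45.8, 39.3 and 26.7 CPM in the RFP+ libraries F12, G11, G12 and H11. Among GFP+ libraries it was at 1.09 CPM in A12 and 6.04 in D12, with no count in B12, C12 and E12. No GFP+ library reached the lowest RFP+ library, an order whose share among all genes was not counted. Means were 38.1 ± 8.10 CPM (n = 4) and 1.43 ± 2.62 (n = 5).

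Sall4 and Sall3 overlapped between the embryo populations. Sall4 was at 111, 192, 113 and 182 CPM in RFP+ libraries F12, G11, G12 and H11, and at 91.7, 182, 74.6, 33.4 and 210.9 CPM in GFP+ libraries A12 to E12. Means were 149 ± 43.3 CPM (n = 4) and 118 ± 74.8 (n = 5). The GFP+ libraries spanned the whole RFP+ range and went beyond it on both sides.

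Sall3 was the most uneven member. It was at 8.10, 28.9, 5.98 and 41.1 CPM in the RFP+ libraries F12, G11, G12 and H11. Of the GFP+ libraries, C12 held 46 counts (57.2 CPM), the highest CPM of any embryo library, while the other 4 held 0. A count of 0 in a library allows up to 3 counts, and this limit covers counting error only, since reads carry no molecular identifiers. The RFP+ libraries of plate column 11 (G11, H11) were above those of column 12 (F12, G12) for Sall3, and likewise for Sall4 (182 to 192 against 111 to 113 CPM), with 2 wells in each. All 5 embryo GFP+ wells were in column 12. Within column 12, Sall1 was at 92.1 and 107 CPM in RFP+ against at most 35.7 in GFP+ wells, and Sall2 at 40.5 and 39.3 against at most 6.04. Beyond this, the part of the plate column was not tested.

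**Figure D2:**
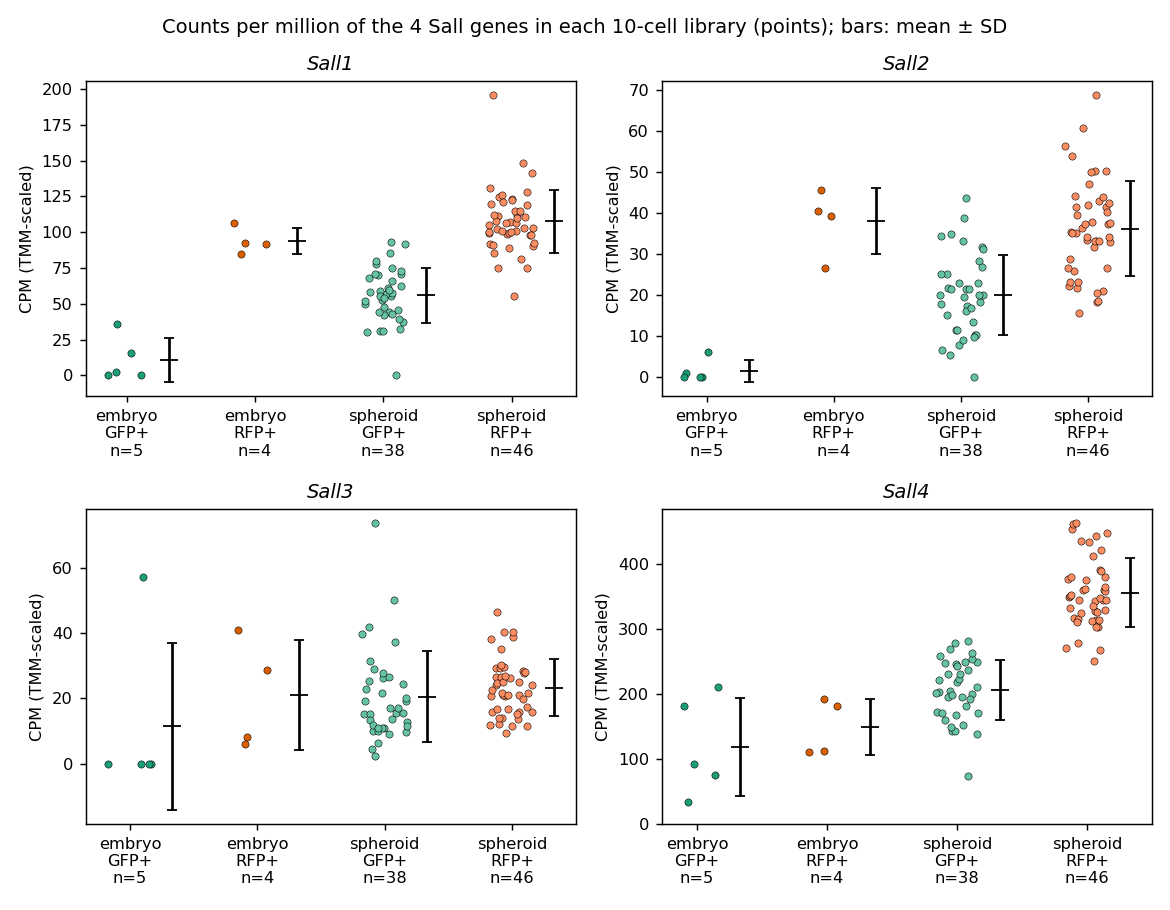
CPM scaled by TMM (vertical axis, linear) of Sall1, Sall2, Sall3 and Sall4 in each library (points) of the 4 groups, with the mean and SD of the group beside them. For Sall1 and Sall2 the 4 embryo RFP+ points lie above all 5 embryo GFP+ points, and for Sall4 the 46 spheroid RFP+ points lie above the 4 embryo RFP+ points.

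The embryo populations were compared over all genes by edgeR's quasi-likelihood test with Benjamini-Hochberg adjustment and a threshold of 0.1 on the adjusted p. This called 858 of 8503 genes (10.1%) and 0 of the 4 Sall genes, of which 2 had an unadjusted p under 0.05, as did 16.2% of all genes tested. DESeq2 called 2 of them, against 18% of the 10784 genes to which it gave an adjusted p. The log2 fold change of RFP+ over GFP+ cells was 4.56 ± 1.65 (SE) for Sall2 (edgeR adjusted p = 0.142) and 3.04 ± 1.39 for Sall1 (edgeR adjusted p = 0.297). DESeq2 gave an adjusted p of 0.00546 for Sall2 and 0.0911 for Sall1. Without the GFP+ library D12, which holds 13 Sall2 counts where A12 holds 1 and the others 0, Sall2 was called (fitted log2 fold change 6.77, edgeR adjusted p = 0.0200), a value that then depends on the prior count of the fit. Leaving out B12 raised the Sall1 change to 4.27 on the log2 scale.

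On the log2 CPM of 1 gene at a time, with a prior count of 2, the two-sided exact permutation test gave p = 0.0159 for Sall1 and for Sall2, the smallest p that 5 against 4 libraries allow. Any gene whose RFP+ libraries all lie above its GFP+ libraries gets this p, and the share of such genes was not counted. The same test gave p = 0.143 for Sall3 and p = 0.381 for Sall4. These are 4 of 16 such tests, not adjusted. In the fit, Sall4 changed by 0.27 ± 0.60 (95% interval -1.02 to 1.56) and Sall3 by 0.77 ± 1.98 (-3.52 to 5.05) on the log2 scale, with edgeR adjusted p = 0.942 and 0.957. Both intervals hold changes of 2-fold in either direction.

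In spheroids, Sall1, Sall2 and Sall4 were higher in RFP+ than in GFP+ cells. The edgeR test called 3 of the 4 members, against 77.9% of the 9940 genes tested (37.8% higher and 40.1% lower in RFP+ cells), so a called gene was the rule in this comparison. The sizes of the changes lay toward the upper end: among all genes tested, Sall1 was at percentile 92 of the log2 fold changes, Sall2 at percentile 89.8 and Sall4 at percentile 88.1, whereas Sall3 was at percentile 65.0. The median change of all genes was -0.02 on the log2 scale.

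Sall1 ranged from 55.3 to 196 CPM in RFP+ wells (median 106) and from 0 to 93.2 CPM in GFP+ wells (median 56.2). The value of 0 is the shallow well C9, and without C9 the lowest GFP+ well was at 30.6 CPM. The means were 108 ± 21.8 CPM (SD, n = 46) and 55.9 ± 19.0 (n = 38). The log2 fold change was 0.85 ± 0.08 (SE), or 1.80-fold, with edgeR adjusted p = 1.2e-17. Of the 46 RFP+ wells, 45 were above the median GFP+ well, and 10 were at or below the highest GFP+ well.

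Among the 4 members, Sall4 separated the spheroid populations most completely. It ranged from 251 to 463 CPM in RFP+ wells (median 348) and from 73.9 to 281 CPM in GFP+ wells (median 203). The lowest value is 1 count in the shallow well C9, and without C9 the lowest GFP+ well was at 139 CPM. Only 4 of 46 RFP+ wells were at or below the highest GFP+ well. An RFP+ well was above a GFP+ well in 99.3% of all pairs of wells. The share of all genes whose wells separate as far as those of Sall4 or Sall1 was not counted. The mean was 356 ± 52.7 CPM (n = 46) against 206 ± 46.2 (n = 38), and the log2 fold change was 0.72 ± 0.05, or 1.65-fold, with edgeR adjusted p = 2.9e-22.

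Sall2 ranged from 15.7 to 68.8 CPM in RFP+ wells (median 35.3) and from 0 to 43.7 CPM in GFP+ wells (median 19.9). The value of 0 is again well C9, without which the lowest GFP+ well was at 5.25 CPM. Here 36 of 46 RFP+ wells were at or below the highest GFP+ well. The log2 fold change was 0.77 ± 0.12, or 1.70-fold, with edgeR adjusted p = 4.9e-08. Tested alone by permutation, p was 2e-05 for Sall1, Sall2 and Sall4 alike, the smallest that 100000 resamples can give.

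Sall3 ran from 9.48 to 46.7 CPM in RFP+ wells (median 22.1) and from 2.19 to 73.9 CPM in GFP+ wells (median 16.2). The highest value is 1 count in the shallow well C9, and without C9 the highest GFP+ well was A7 with 50.3 CPM (135 counts). All 46 RFP+ wells lay within the GFP+ range. The log2 fold change was 0.24 ± 0.15 (95% interval -0.06 to 0.53), with edgeR adjusted p = 0.138 and a permutation p = 0.0558. Sall3 was called when near-identical wells were summed (log2 fold change 0.29, edgeR adjusted p = 0.0804) and when genes of low counts were kept (0.29, adjusted p = 0.0899).

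Spread between wells followed the abundance of the genes. In RFP+ wells the coefficient of variation was 14.8% for Sall4, 20.2% for Sall1, 32.2% for Sall2 and 37.4% for Sall3, with median counts of 502, 161, 57 and 33. In GFP+ wells it was 22.4%, 34.0%, 49.1% and 67.9%. Without C9, the GFP+ means were 209 ± 41.2 CPM for Sall4, 57.4 ± 16.8 for Sall1, 20.6 ± 9.39 for Sall2 and 19.1 ± 10.9 for Sall3 (SD, n = 37).

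The spheroid populations shared no plate column (RFP+ in 1 to 6, GFP+ in 7 to 11), and an effect of the column cannot be told apart from that of the population. Within populations, the RFP+ wells of columns 3 and 4 were near-identical in 7 rows. Their counts differed by 1.37 to 2.39 times the variance of counting noise (chi-square over its degrees of freedom), against 2.68 to 14.2 for the other 1028 RFP+ pairs. They differed by more than sampling noise and were kept as separate libraries, and summing them left Sall1, Sall2 and Sall4 called.

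**Figure D3:**
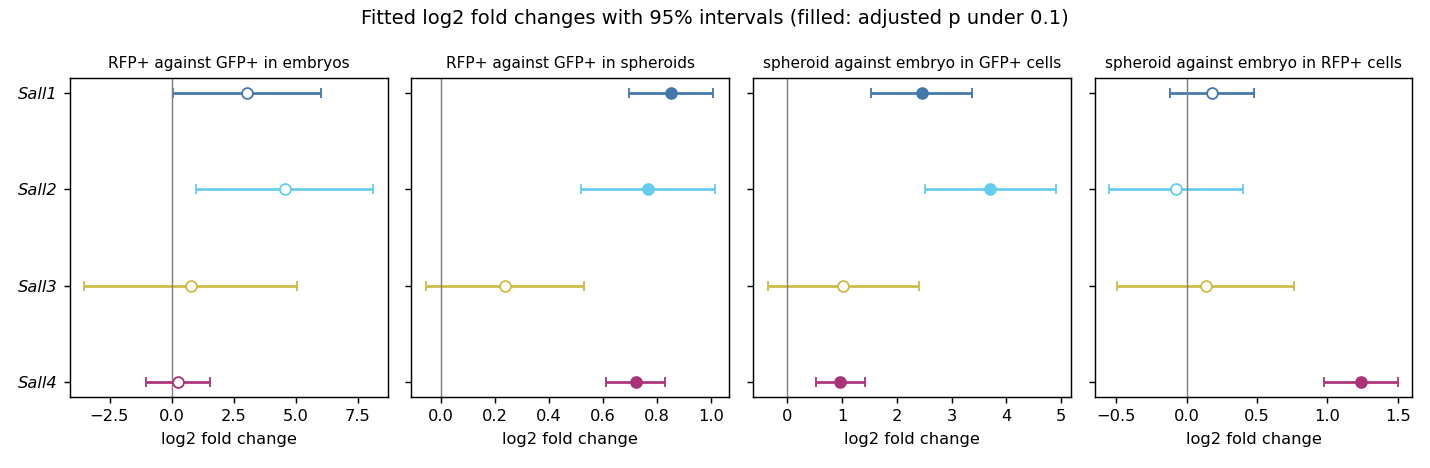
Log2 fold changes of the 4 Sall genes (horizontal axis, different scale in each panel) with 95% intervals in the 4 comparisons, filled where the edgeR adjusted p is under 0.1. Positive values stand for RFP+ in the 2 panels on the left and for spheroids in the 2 on the right. In embryos no point is filled, and in RFP+ cells across sources Sall4 alone is filled, at 1.24.

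Between sources, Sall4 was the member that differed in RFP+ cells, and Sall1, Sall2 and Sall3 did not pass the test. Sall4 was 2.36-fold higher in spheroid than in embryo RFP+ cells (log2 fold change 1.24 ± 0.13, edgeR adjusted p = 9.8e-12). Its range of 251 to 463 CPM over 46 spheroid wells did not meet the range of 111 to 192 CPM over 4 embryo libraries, and the exact permutation p was 8.7e-06. The share of all genes with ranges apart between these groups was not counted. In all, 42.6% of 11147 genes were called in this comparison, and 1 of the 4 members. The intervals of the other members were -0.12 to 0.48 for Sall1, -0.55 to 0.40 for Sall2 and -0.49 to 0.76 for Sall3 on the log2 scale, with edgeR adjusted p = 0.356, 0.837 and 0.775. The values of Sall2 and Sall3 changed sign when single embryo libraries were left out. Among marker genes in RFP+ cells, 5 of 11 tested pluripotency genes were higher and 1 lower in spheroids, and 8 of 8 tested cardiomyocyte genes were lower, against 22.5% higher and 20.1% lower over all genes. Their part in the Sall4 difference was not tested.

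GFP+ cells of spheroids had more Sall1 and Sall2 than those of embryos. The test called 3 of 4 members, against 68% of 11822 genes. The median change of all genes was itself 0.67 on the log2 scale, and 0.22 with DESeq2's size factors, so changes are also given relative to it. The log2 fold change was 3.71 ± 0.60 for Sall2 (edgeR adjusted p = 5.9e-07), which is 3.04 above the median of all genes, and 2.45 ± 0.46 for Sall1 (adjusted p = 9.8e-06), which is 1.79 above it. Among all genes tested, Sall2 was only at percentile 79.3 of the log2 fold changes and Sall1 at percentile 74.2. Without the embryo library B12 the Sall1 change was 3.86, and without D12 that of Sall2 was 6.34, a fitted value against libraries with at most 1 count, which depends on the prior count.

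Marker genes moved with these values. Higher in spheroid GFP+ cells were 10 of 14 tested pluripotency genes (1 was lower), 4 of 4 endoderm and 4 of 4 neural genes, and 9 of 9 tested cardiomyocyte genes were lower, against 48.3% higher and 19.7% lower over all genes. Their part in the Sall differences was not tested.

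Sall4 was called too in GFP+ cells, at 0.97 ± 0.22 (edgeR adjusted p = 0.000177), but this was only 0.30 above the median of all genes, and its 95% interval of 0.53 to 1.41 included that median. Sall3 changed by 1.02 ± 0.69 in the fit (edgeR adjusted p = 0.195), whereas on log2 CPM, where 4 of the 5 embryo libraries are at 0, its mean difference was 2.96 (two-sided exact permutation p = 0.00024). On that scale the exact permutation p was 0.00025 for Sall1, 3.5e-05 for Sall2 and 0.00077 for Sall4. The fitted value of Sall3 rested on 1 library: without the embryo library C12, all remaining embryo GFP+ libraries were at 0, and Sall3 was called (edgeR adjusted p = 3.4e-09). Against a floor of 3 counts in each of these libraries, it was at least 8.35-fold higher in spheroid GFP+ cells, taken without the shallow well C9. This bound covers only the embryo libraries at 0. With C12 and C9 kept, the ratio of mean CPM was 1.80. In both comparisons between sources, embryo and spheroid wells shared no plate column, and neither column nor culture can be told apart from source.

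The order of the group medians was the same for Sall1, Sall3 and Sall4 at both ends, from embryo GFP+ to spheroid RFP+ cells. For Sall2 too, embryo GFP+ cells had the lowest median. For Sall1 the medians were 2.18 CPM in embryo GFP+, 56.2 in spheroid GFP+, 92.2 in embryo RFP+ and 106 in spheroid RFP+ cells, and the highest pair did not differ beyond its spread. For Sall4 they were 91.7 in embryo GFP+, 147 in embryo RFP+, 203 in spheroid GFP+ and 348 CPM in spheroid RFP+ cells, and the lowest pair did not differ beyond its spread. Sall2 was highest in embryo RFP+ cells, with medians of 39.9 CPM there, 35.3 in spheroid RFP+, 19.9 in spheroid GFP+ and 0 in embryo GFP+ cells. The highest pair of Sall2 did not differ beyond its spread. For Sall3 the medians were 22.1 in spheroid RFP+, 18.5 in embryo RFP+, 16.2 in spheroid GFP+ and 0 CPM in embryo GFP+ cells. Comparisons of spheroid GFP+ with embryo RFP+ cells were not made.

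The RFP+ against GFP+ change was compared between sources by subtracting the embryo from the spheroid log2 fold change and dividing by the joint standard error (t with 7 degrees of freedom). It was 3.79 ± 1.65 smaller in spheroids for Sall2 (a difference of -3.79, p = 0.0557, adjusted p = 0.426 over the edgeR fits) and 2.19 ± 1.39 smaller for Sall1 (-2.19, adjusted p = 0.685 over the edgeR fits). For Sall4 the difference was 0.45 ± 0.60 and for Sall3 -0.53 ± 1.99. This test called 5.26% of 8182 genes and 0 Sall genes, with 0 at an unadjusted p under 0.05. An interaction term in 1 edgeR fit over all groups, which gives the groups 1 common spread, called 54.4% of 12655 genes, among them Sall2 (-3.55, adjusted p = 4.0e-08) and Sall1 (-2.06, adjusted p = 4.3e-06).

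Across spheroid wells the members varied largely apart from each other. Relations were computed within each population over libraries of more than 100000 counts, on log2 CPM, for the 6 pairs of members and for each member with the mean of 3 gene lists and with the library total, 44 in all. None passed an adjusted p of 0.1 by Pearson's r (lowest adjusted permutation p = 0.283), and 1 did by Spearman's rho. At an unadjusted permutation p under 0.05 there were 6 by each coefficient.

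The strongest relation of 2 members was that of Sall2 and Sall3 in GFP+ wells, with r = -0.440 (n = 37, permutation p = 0.00644, adjusted p = 0.283) and rho = -0.358 (permutation p = 0.0300, adjusted p = 0.290). Without the 2 wells farthest from the median of Sall2, r was -0.361. In RFP+ wells r was -0.0966 for this pair (n = 46, permutation p = 0.526, adjusted p = 0.798; rho = -0.0537, permutation p = 0.721, adjusted p = 0.884). Sall1 and Sall4, both higher in RFP+ cells, had r = -0.0698 within GFP+ wells (permutation p = 0.681, adjusted p = 0.881; rho = -0.115, permutation p = 0.495, adjusted p = 0.746) and r = -0.236 within RFP+ wells (permutation p = 0.113, adjusted p = 0.449; rho = -0.261, permutation p = 0.0805, adjusted p = 0.380). Without the 2 farthest wells these were -0.252 and -0.101.

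The relation that passed by rho was that of Sall1 with the mean of the 10 tested pluripotency genes in RFP+ wells (rho = -0.445, permutation p = 0.00211, adjusted p = 0.0928; r = -0.317, permutation p = 0.0351, adjusted p = 0.298, n = 46). Without the 2 wells farthest from the median of the list, r was -0.399. With near-identical wells counted once, r was -0.246 (permutation p = 0.134).

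**Figure D4:**
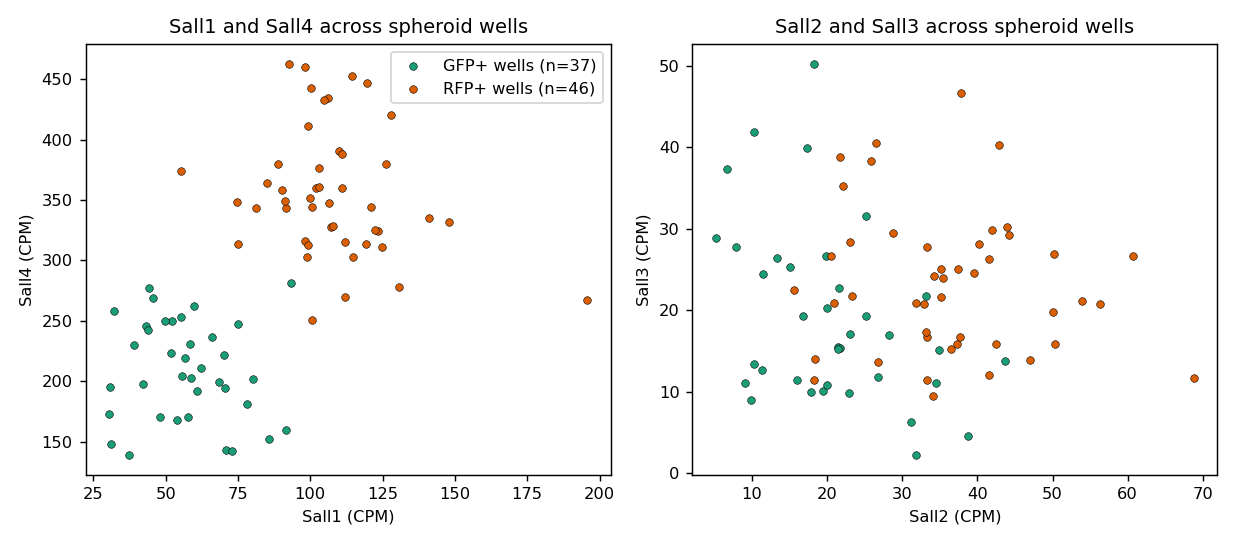
CPM of Sall4 against Sall1 (left) and of Sall3 against Sall2 (right) in spheroid wells of more than 100000 counts, GFP+ wells (n = 37) in green and RFP+ wells (n = 46) in orange, on linear axes. The populations overlap in part for Sall1 and Sall4, with no relation past the adjusted threshold within either. For Sall1 10 of 46 RFP+ wells, and for Sall4 4, lie at or below the highest GFP+ well. For Sall2 and Sall3 the populations overlap widely.

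The genes whose levels were most like each member were found by Pearson's r over these 83 spheroid wells, after the mean of each population was removed. For Sall1 they were Kif18a (r = 0.470), a motor of the mitotic spindle, Cep41 (0.444), a centrosomal protein, and Haus5 (0.430), a subunit of the augmin complex of the spindle. For Sall4 they were Sh3kbp1 (0.442), Ptges3 (0.426), a co-chaperone, and Cox5a (0.425), a subunit of cytochrome c oxidase. Sall2 was most like Plcb3 (0.409), a phospholipase C, Aplf (0.405), a DNA repair factor, and Zdhhc16 (0.401). Sall3 was most like Pmp22 (0.492), Chst2 (0.445), a sulfotransferase, and Ncstn (0.430), a subunit of gamma-secretase. Chst2 and Sall3 had r = 0.663 in GFP+ but -0.105 in RFP+ wells, and Aplf and Sall2 0.589 and 0.0439. These are the highest of 9939 values for each member, the wells share a plate and a range of depths, and they are given as a description.

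NuRD genes were mostly detected in all groups, and their changes did not follow a common direction. Of the 15 genes listed, 14 were tested, and Chd5, a remodeller best known from neurons, had no count in embryo libraries. In spheroids 8 rose and 3 fell in RFP+ cells, so that the share called was near the 77.9% called over all genes (37.8% higher, 40.1% lower). The median log2 fold change was 0.35, against -0.02 over all genes tested. Mbd3, a core subunit, was at 40.4 CPM in GFP+ and 81.0 CPM in RFP+ cells (log2 fold change 0.98 ± 0.09, edgeR adjusted p = 1.5e-16), and Cdk2ap1, a small subunit, rose by 0.85 ± 0.09 (adjusted p = 9.3e-15). Mbd2, which takes the place of Mbd3 in another form of the complex, fell by 1.01 on the log2 scale (SE 0.13, edgeR adjusted p = 6.7e-11), from 23.4 CPM in GFP+ to 12.3 CPM in RFP+ cells. Mta3, a scaffold subunit, fell by 1.27 (SE 0.12, adjusted p = 2.8e-17).

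In embryos edgeR called 0 of the 14 NuRD genes, against 10.1% of all genes tested. At an unadjusted p under 0.05 there were 2, against 16.2% of all genes. DESeq2 called 2, against 18% of the genes to which it gave an adjusted p. Their median log2 fold change was 0.38, against 0.09 over all genes. Mbd3 was at 23.5 CPM in GFP+ and 132 CPM in RFP+ embryo cells, with 2.38 ± 1.47 on the log2 scale and edgeR adjusted p = 0.538.

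**Figure D5:**
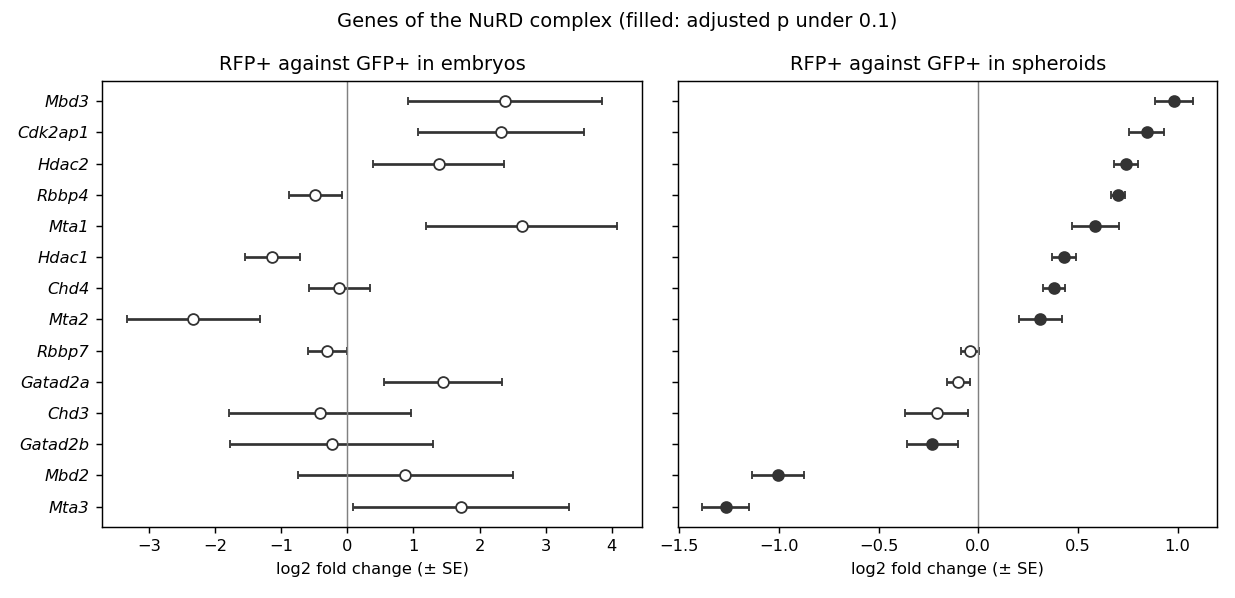
Log2 fold changes (± SE, horizontal axes of different scale) of the 14 tested NuRD genes between RFP+ and GFP+ cells in embryos (left) and spheroids (right), filled where the edgeR adjusted p is under 0.1. In spheroids 8 genes lie to the right and 3 to the left as filled points, and in embryos no point is filled.

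Genes of the heart fields were compared between the populations too. Of 15 SHF genes, 4 of the 9 tested were higher in RFP+ cells of embryos (6.21% of all genes) and 9 of the 12 tested in spheroids (37.8% of all genes), where 1, Isl1, was lower (log2 fold change -1.40 ± 0.12, edgeR adjusted p = 2.9e-18). Foxc2, a forkhead factor, was at 0 in all embryo GFP+ libraries and at a mean of 19.8 CPM in embryo RFP+ cells (edgeR adjusted p = 0.0122), and rose by 5.56 ± 0.27 on the log2 scale in spheroids (adjusted p = 1.3e-34). Six2, a homeobox factor, rose by 5.73 ± 0.24 in spheroids. Of 9 FHF genes, 3 of 6 tested were lower in RFP+ cells of embryos (3.88% of all genes) and 3 of 4 tested in spheroids (40.1% of all genes). Tbx5, a T-box factor of the FHF, fell by 7.80 on the log2 scale in embryos (SE 1.15, edgeR adjusted p = 0.00122), and Hand1 fell by 4.39 in spheroids (SE 0.37).

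All 9 tested cardiomyocyte genes were called lower in embryo RFP+ cells, against 3.88% of all genes tested. The summed CPM of the 10 listed genes was 18792 to 54806 in embryo GFP+ libraries, 1256 to 2355 in embryo RFP+ libraries, 0 to 1402 in spheroid GFP+ wells and 14.1 to 141 in spheroid RFP+ wells. The embryo GFP+ libraries, where Sall1 and Sall2 were lowest, thus had the highest sums. The part of this difference in the Sall levels was not tested.

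Most of the tested pluripotency genes, a group in which Sall4 is often counted, went the other way from Sall4 in spheroids. Of 10 tested, 6 were lower and 2 higher in RFP+ cells, a share called near the 77.9% of all genes, with a median log2 fold change of -1.22. Zfp42, a marker of naive ESCs, fell by 3.40 (SE 0.33, edgeR adjusted p = 2.8e-16) and Dppa5a by 3.55 (SE 0.51, adjusted p = 9.2e-10). The genes that rose were Lin28a (1.11 ± 0.07) and Lin28b (0.78 ± 0.10), which bind let-7 precursors. Of the 15 listed genes, 5 (Pou5f1, Zfp42, Dppa2, Dppa4 and Utf1) were at 0 in all embryo libraries, where Sall4 was at 33.4 to 210.9 CPM. Others were present there, with Lin28a at a mean of 107 CPM in embryo GFP+ and 154 CPM in embryo RFP+ cells. The sum over the list ran from 22.4 to 796 CPM in embryo GFP+ and from 276 to 350 CPM in embryo RFP+ libraries. In spheroids it ran from 238 to 1876 CPM in GFP+ and from 223 to 899 CPM in RFP+ wells.

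Genes listed as markers of other cells were also detected. The summed CPM of 7 endoderm genes ran from 263 to 674 in spheroid GFP+ and 44.4 to 244 in spheroid RFP+ wells, from 10.1 to 675.5 in embryo RFP+ libraries, and was 0 in all embryo GFP+ libraries. In spheroid GFP+ cells the means were 160 CPM for Cldn6 and 122 for Epcam, but 2.28 for Foxa2, which was at 9.08 CPM in spheroid RFP+ cells. In spheroids 3 of 4 tested endoderm genes were called lower in RFP+ cells, against 40.1% of all genes, and 1 higher, against 37.8%. Epcam, an epithelial gene, fell by 2.13 (SE 0.13), and Foxa2 alone rose (1.88 ± 0.37). The sum of 6 neural genes was 22.3 to 87.1 CPM in embryo RFP+ and 0 to 9.76 CPM in embryo GFP+ libraries, with 1 tested and not called. In spheroids it was 40.0 to 166 CPM in GFP+ and 35.1 to 106 CPM in RFP+ wells. Of 3 neural genes tested there, Otx2 was higher (0.71 ± 0.15) and Nes lower (-0.98 ± 0.12) in RFP+ cells. Of 6 endothelial genes, 3 were tested in embryos and 1 in spheroids. Emcn was called higher in embryo RFP+ cells (43.2 CPM against 0, edgeR adjusted p = 0.0153), as were 6.21% of all genes. Kdr was called higher in spheroid RFP+ cells (log2 fold change 3.58 ± 0.34), as were 37.8% of all genes. The sums were 56.4 to 350.2 CPM in embryo RFP+ and 0 to 89.6 CPM in embryo GFP+ libraries. Of 5 blood genes none was tested, and their sum reached 1165 CPM in 1 embryo RFP+ library. Which cells these genes came from, and their part in the Sall levels, was not tested.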

How the data were processed

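RNA from 10 sorted cells per well was sequenced. Per the labels and the study's methods, the authors' pipeline was Trimmomatic 0.36 at a quality of at least 35 and a length of at least 36, then HISAT2 2.0.4 on mm10, then featureCounts 1.5.2 of Subread for counts per gene. The deposited values are raw counts for 24514 symbols in 93 libraries, with no normalization. Groups were taken from the sample titles.

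Counts were analysed with edgeR 4.0.16 in R 4.3.3 (TMM, filterByExpr with a minimum count of 10 and a minimum total of 15, trended dispersions, quasi-likelihood F-test) over all genes that passed, with Benjamini-Hochberg adjustment over them and calls at an adjusted p under 0.1. All 4 Sall genes passed in each comparison. The methods of the study name DESeq2, used here (version 1.42.0) as an alternative. Levels across groups are CPM with 1 TMM scaling over all libraries. Single genes were tested on log2 CPM (prior count 2) by permutation with scipy 1.17.1, exactly in embryos and with 100000 resamples in spheroids. Exact tests between sources were added after the data were seen. The scripts were tested on simulated data.

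The members and lists were chosen with earlier results of these data known. Named genes are the members, the 3 genes most like each, from each list up to 2 called genes in each direction and comparison of the populations with the largest change, and Hcn4 and Tbx1. Pou5f1, Dppa2, Dppa4, Utf1 and Chd5 were named after their values were seen, for their counts of 0. Alternatives were other scalings, filters, thresholds and fits, leaving out each embryo library, plate row, larger libraries and near-identical wells summed. No protein sequences were used here. A gene that the rule names and a coding start are not reported here.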

Additional observations from a re-analysis of the deposited data

Results flagged for a closer look

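In the embryo groups, 8 sets of values (4 genes in 2 groups) were checked by Dixon's test at 95% for a library far from the rest, and 2 were found. The rate of about 1 in 20 sets by chance holds for normally distributed values, not for CPM with many zeros. Where 4 of 5 libraries are at 0, as for Sall3, any count in the last one passes. For Sall2, 3 of these 5 were at 0. The test therefore gives no chance rate for these 2 sets. Sall3 was at 57.2 CPM in the GFP+ library C12 and at 0 in the other 4, and Sall2 was at 6.04 CPM in the GFP+ library D12, with the next at 1.09 CPM. The Sall2 value is 13 counts and the Sall3 value 46 counts.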

How the results depend on the processing

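Leaving out each embryo library in turn moved the log2 fold change of Sall2 in embryos between 4.24 and 6.77, that of Sall3 between GFP+ sources between 0.61 and 8.18 (a fitted value against libraries at 0, which depends on the prior count), and, between RFP+ sources, that of Sall3 between -0.16 and 0.68 (-0.16 without G12, -0.14 without F12) and that of Sall2 between -0.21 and 0.027 (without G11). In embryos 858 genes were called, against 1945 by DESeq2, 2000 without a filter on low counts and 7115 in 1 fit over all groups. Both Sall1 and Sall2 passed by DESeq2 (2.95 and 4.48) and in the fit over all groups (2.96 and 4.36). In spheroids 7747 genes were called, against 13109 without the filter, where Sall3 passed (0.29), as it did with near-identical wells summed (0.29). The interaction term gave -2.06 for Sall1 and -3.55 for Sall2, past the threshold. The cause of these changes was not tested. Of 207 alternative values of the Sall genes in the 4 comparisons, 196 kept direction and side of the threshold. All 40 of the single-gene permutation tests did so. Of 73 alternative relations 68 did so, and that of Sall3 with the library total in RFP+ wells went from 0.0352 to -0.0461 with near-identical wells counted once. No paired analysis was possible because the groups share no well names. Low counts limit Sall2 and Sall3 in embryo GFP+ libraries, where at most 13 and 46 counts were seen.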
